A study of Mus musculus with 32 samples.

Results

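Genes of the GABA system were followed across the cell types of the mouse median eminence (ME), the floor of the third ventricle where hypothalamic axons release hormones into the portal blood. The 7 genes were taken by name from the 27998 genes of the matrix: the GABA synthesis and loading genes Slc32a1, Gad1 and Gad2, the uptake transporter Slc6a11, the breakdown enzyme Abat, and the GABA-B receptor subunits Gabbr1 and Gabbr2. All 7 were found, each under 1 Ensembl identifier. GABA is made from glutamate by glutamate decarboxylase, loaded into synaptic vesicles, cleared by transporters in the plasma membrane of neurons and glia, and degraded by a mitochondrial transaminase. The metabotropic GABA-B receptor signals through inhibitory G proteins and needs both of its subunits at the cell surface. In the hypothalamus GABA is the main fast inhibitory transmitter, and neurons that use it take part in feeding and in the control of pituitary hormones.

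The study compared C57B/L6 mice of 40 to 47 days of age that had been fasted overnight for 16 h with mice fasted likewise and then given normal chow for 1 h. The ME of 5 animals per condition was pooled, dissociated in papain, sorted for living nucleated cells and split into 2 droplet libraries (10X Single Cell 3' V2), so no single animal can be recovered. The deposited matrix held unique molecular identifier (UMI) counts of 5982 cells whose barcodes ended in a number from 1 to 4, and neither the labels nor the file tied a number to a library or to fasting or refeeding. The matrix was therefore treated as 1 sample, no test was made, no level was assigned to a feeding state, and values are given for each barcode number side by side.

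The cells carried 29288898 UMIs with a median of 3837 per cell (range 1533 to 25054), and each barcode number held 1359 to 1642 cells. Of the barcodes, 21 occurred under more than 1 number and covered 42 cells. Cells were clustered without the 7 genes and without 34 other genes of the GABA system, and 13 cell types were named from marker lists, leaving 40 cells unnamed and 3 red cells apart. There were 511 neuron-like, 1425 astrocyte-like, 1634 tanycyte-like, 202 ependymocyte-like, 306 OPC-like (oligodendrocyte precursor), 138 diffOPC-like (differentiating precursor), 658 MOL-like (mature oligodendrocyte), 402 microglia-like, 151 macrophage-like, 268 VLMC-like (vascular and leptomeningeal), 75 mural-like, 84 endothelial-like and 85 pars tuberalis-like cells. The pars tuberalis-like cluster went against its name in part: 49 of its 85 cells had no UMI of the endocrine markers Tshb or Pitx1, and these 49 cells had a summed level of 22751 CPM over the neuron marker list, against 2348 CPM in the other 36. Tanycyte-like cells, the ventricle-lining glia that mark this region, made up 27.3% of all cells. Depth differed widely, with a median of 13393 UMIs in neuron-like cells, 2665 in astrocyte-like cells and 4101 in tanycyte-like cells, so shares of cells with a UMI are given beside shares after each cell was thinned to 2000 UMIs.

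Levels are given as CPM, the UMIs of a gene divided by all UMIs in the summed cells of a type and multiplied by 1000000. Intervals are exact 95% Poisson intervals for CPM and exact 95% Clopper-Pearson intervals for shares, and they cover counting error only, not the spread between animals or libraries. Where no UMI was counted, the limit given is that of 3 counts. Since each transcript is counted by its 3' tag, levels are compared between cell types for 1 gene and not between genes.

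The 3 synthesis genes all lie on chromosome 2 in the GENCODE annotation of GRCm38: Gad2 (ENSMUSG00000026787) at chr2:22622205-22693874, Gad1 (ENSMUSG00000070880) at chr2:70553072-70602014 and Slc32a1 (ENSMUSG00000037771) at chr2:158610767-158615748, each on the + strand. Slc6a11 (ENSMUSG00000030307) lies at chr6:114131241-114249952 on the + strand, Abat (ENSMUSG00000057880) at chr16:8513429-8621568 on the + strand, Gabbr1 (ENSMUSG00000024462) at chr17:37045966-37075067 on the + strand and Gabbr2 (ENSMUSG00000039809) at chr4:46662305-46991873 on the - strand. An antisense transcript overlaps Gad1 (Gad1os, 5 UMIs in the matrix) and another overlaps Slc32a1 (Gm14205, 2 UMIs), and the sources used here do not say whether counting used the strand. Below is the DNA before the RefSeq transcription start of the 3 synthesis genes, which shared their highest cell type, and of Slc6a11, which had another, each printed 5' to 3' from 250 bases before the start up to the first base that GENCODE places in an exon of the gene (GRCm38.p6). Capitals mark a match on either strand to the TATA box (letters TATAAA), to the GC box (letters GGGCGG) or to the CCAAT box, and the homeodomain core (letters TAATTA), also searched on both strands, occurred in none of these windows.
Slc32a1 (chr2:158610508-158610757, + strand): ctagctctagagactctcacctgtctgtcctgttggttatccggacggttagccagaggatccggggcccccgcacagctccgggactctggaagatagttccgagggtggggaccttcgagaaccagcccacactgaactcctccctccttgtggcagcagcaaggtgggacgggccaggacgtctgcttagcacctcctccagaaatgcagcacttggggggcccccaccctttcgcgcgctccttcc
Gad1 (chr2:70561879-70562041, + strand): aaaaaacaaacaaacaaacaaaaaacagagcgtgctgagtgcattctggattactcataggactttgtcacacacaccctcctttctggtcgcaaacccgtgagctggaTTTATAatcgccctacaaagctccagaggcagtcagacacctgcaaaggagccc
Gad2 (chr2:22622077-22622204, + strand): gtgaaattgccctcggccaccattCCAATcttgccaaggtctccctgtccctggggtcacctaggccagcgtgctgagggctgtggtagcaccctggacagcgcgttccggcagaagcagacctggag
Slc6a11 (chr6:114130991-114131240, + strand): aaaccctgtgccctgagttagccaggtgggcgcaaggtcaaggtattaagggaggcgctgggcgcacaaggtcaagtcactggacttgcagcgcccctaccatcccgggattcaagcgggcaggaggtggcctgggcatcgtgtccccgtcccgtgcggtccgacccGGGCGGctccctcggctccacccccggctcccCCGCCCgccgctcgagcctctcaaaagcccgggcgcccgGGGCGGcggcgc
No motif occurred in all 4 of these promoters. The whole 250 bases held 1 TATAAA and 1 GGGCGG match for Gad1, 1 CCAAT match for Gad2, 3 GGGCGG matches for Slc6a11 and none of the 4 motifs for Slc32a1. Among 32851 promoter windows of the same length in the RefSeq table, TATAAA occurred in 12.4%, GGGCGG in 32.7%, CCAAT in 33.8% and TAATTA in 4.84%. The 3' tags do not show which start a transcript used, and the matches are a description of the sequence alone. Of the 7 genes, 6 had a window in the table.

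The synthesis genes were neuronal. Slc32a1, the transporter that loads GABA into synaptic vesicles, reached 187 CPM in neuron-like cells (95% interval 176 to 197). Of all its 1344 UMIs, 91.9% came from these 8.54% of cells, which held 22.6% of the UMIs of all genes. The next cluster was the mixed pars tuberalis-like one at 85.5 CPM (61.6 to 116), where the 36 cells with Tshb or Pitx1 had none of it. In the remaining types Slc32a1 lay between 0 and 4.65 CPM, and their intervals overlapped. In ependymocyte-like cells 0 of 202 cells had a UMI, which allows a share of up to 1.49%, and in mural-like cells 0 of 75, which allows up to 4%.

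Gad1, which encodes the cytoplasmic glutamate decarboxylase GAD67, reached 298 CPM in neuron-like cells (285 to 312), with 92.2% of its 2142 UMIs there. Gad2, which encodes the synapse-associated form GAD65, reached 396 CPM in neuron-like cells (381 to 411), with 95.9% of its 2731 UMIs there. Both genes therefore had the same leading type as Slc32a1, and for each the neuronal interval lay above those of all other types. Outside neuron-like cells the genes parted in 1 place: Gad1 was at 40.2 CPM in OPC-like cells (29.8 to 53.0), while Gad2 there was at 6.43 CPM (2.78 to 12.7). In every other type apart from the pars tuberalis-like cluster, Gad1 lay between 0 and 6.16 CPM and Gad2 between 1.23 and 5.48 CPM. The count of 0 for Gad1 in macrophage-like, mural-like and endothelial-like cells allows up to 5.74, 13.3 and 13.95 CPM.

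The shares of cells named the same type. A UMI of Gad1 was found in 77.9% of neuron-like cells (74.0 to 81.4), of Gad2 in 71.2% (67.1 to 75.1) and of Slc32a1 in 68.9% (64.7 to 72.9). After thinning to 2000 UMIs the shares were 39.0%, 44.1% and 30.7%, lower throughout. In microglia-like cells, which should lack all 3 genes, the thinned shares were 1.39%, 0.833% and 0%, the last being 0 of 360 cells, which allows up to 0.833%.

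**Figure D1:**
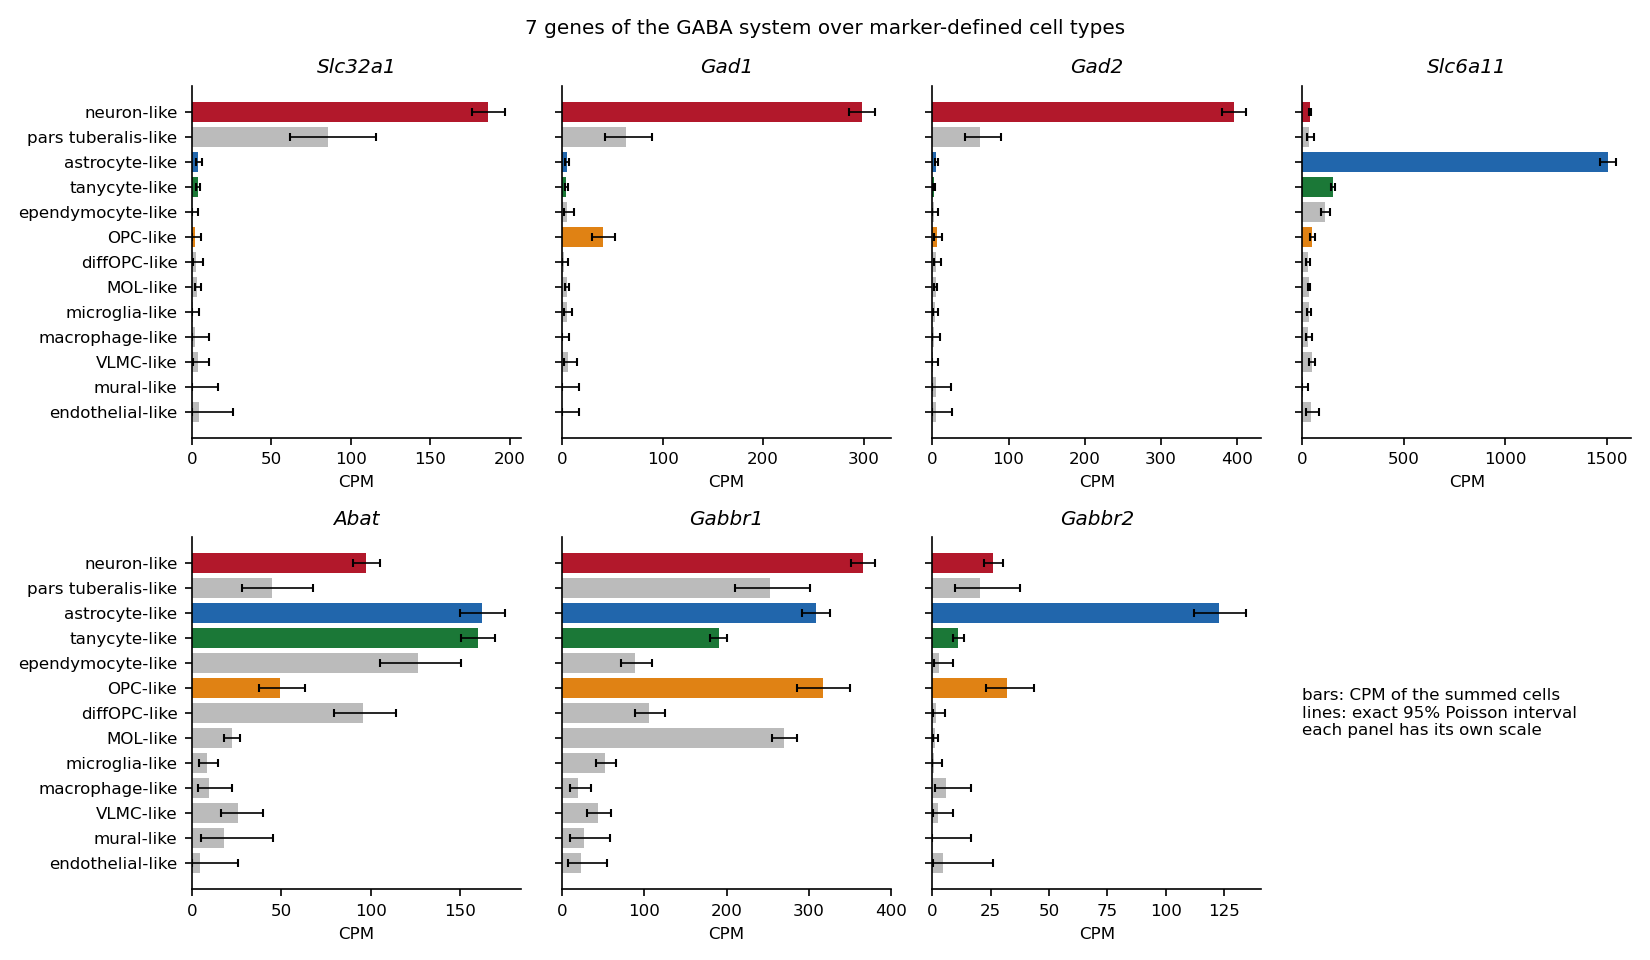
CPM of each of the 7 genes (x axis, each panel with its own scale) in the summed cells of 13 marker-defined types (y axis), with exact 95% Poisson intervals as lines. Slc32a1, Gad1 and Gad2 were highest in neuron-like cells (187, 298 and 396 CPM), Slc6a11 and Gabbr2 in astrocyte-like cells (1505 and 123 CPM), while Abat and Gabbr1 were spread over several types.

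Uptake was mainly glial, and the breakdown gene was found in neurons and in some of the glial types. Slc6a11, the GABA transporter GAT3 of astrocyte membranes, reached 1505 CPM in astrocyte-like cells (1467 to 1544), and a UMI was found in 96.4% of them (95.2 to 97.3) and still in 92.5% after thinning. Tanycyte-like cells followed at 150 CPM (141 to 160) and ependymocyte-like cells at 111 CPM (91.4 to 134), with intervals that did not overlap. All other types lay at 46.6 CPM or lower, and their neighbouring intervals overlapped throughout, from 46.6 CPM in OPC-like to 4.45 CPM in mural-like cells. In neuron-like cells Slc6a11 was at 35.2 CPM (30.82 to 40.01), level with 32.1 CPM in microglia-like cells (23.3 to 43.3), and the thinned shares of cells were 6.30% and 4.72%, so neuronal UMIs of this gene could not be told from background. The shares before thinning were 35.8% and 9.45%.

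Abat, the mitochondrial GABA transaminase, had no single leading type. It was at 162 CPM in astrocyte-like cells (150 to 175) and 160 CPM in tanycyte-like cells (151 to 170), and these intervals overlapped. Ependymocyte-like cells had 126 CPM (105 to 150), neuron-like cells 97.3 CPM (89.9 to 105) and diffOPC-like cells 95.5 CPM (79.3 to 114), and the ependymocyte-like interval met those of astrocyte-like and neuron-like cells at its ends. The other types had less: OPC-like cells were at 49.0 CPM (37.5 to 63.0), MOL-like cells at 22.1 CPM (18.0 to 26.9) and microglia-like cells at 8.22 CPM (4.10 to 14.7). By UMIs rather than level, tanycyte-like cells held 38.6% of all Abat UMIs, neuron-like cells 22.5% and astrocyte-like cells 22.4%. Of the UMIs of all genes, these types held 23.6%, 22.6% and 13.5%. Thinned shares of cells were close in astrocyte-like (25.2%), tanycyte-like (24.7%) and neuron-like cells (21.3%), with intervals of 22.8 to 27.6, 22.6 to 26.9 and 17.8 to 25.1.

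Along the oligodendrocyte lineage Abat was not ordered by stage. Its level in OPC-like cells was 0.514 times that in diffOPC-like cells (0.371 to 0.704), and its level in MOL-like cells was 0.232 times the diffOPC-like level (0.176 to 0.304). The differentiating cells were thus the high point of the lineage for this enzyme, at 95.5 CPM against 49.0 and 22.1 CPM before and after.

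Tanycyte-like cells were not uniform. In the 603 cells of the cluster led by Dio3, a deiodinase, Abat was at 98.6 CPM (86.1 to 112), in the 676 cells led by Scn7a, a sodium channel gene, at 178 CPM (164 to 194), and in the 355 cells led by Gfap, an intermediate filament gene, at 211 CPM (189 to 234). Slc6a11 took another order, with 110 CPM (98.3 to 122) in the Scn7a-led, 146 CPM (131 to 163) in the Dio3-led and 231 CPM (208 to 256) in the Gfap-led cells. Both genes therefore had their highest value in the Gfap-led cells, while the other 2 clusters changed places between them. For Abat the Gfap-led and Scn7a-led intervals overlapped. Of the 3 clusters, the Gfap-led one had the lowest score for the tanycyte marker list (0.46) and the highest for the ependymocyte list (0.275), and its part in these levels was not tested. Gabbr1 took yet another order, at 233 CPM (213 to 253) in Dio3-led, 189 CPM (168 to 211) in Gfap-led and 160 CPM (146 to 174) in Scn7a-led cells.

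The GABA-B subunits differed in their distribution. Gabbr1, the ligand-binding subunit, was broadly present: 366 CPM in neuron-like (352 to 381), 317 CPM in OPC-like (286 to 350), 309 CPM in astrocyte-like (291 to 326), 270 CPM in MOL-like (255 to 286), 252 CPM in pars tuberalis-like (210 to 301) and 190 CPM in tanycyte-like cells (180 to 201). The OPC-like and astrocyte-like intervals overlapped, as did the MOL-like and pars tuberalis-like ones. The pars tuberalis-like value joined unlike cells, since Gabbr1 was at 75.4 CPM in the 36 cells with Tshb or Pitx1 and at 542 CPM in the 49 without. Within the oligodendrocyte lineage the diffOPC-like cells were low, at 106 CPM (88.6 to 125), and the OPC-like level was 2.999 times this (2.46 to 3.67) and the MOL-like level 2.56 times this (2.14 to 3.08). Ependymocyte-like cells had 89.1 CPM (71.5 to 110), microglia-like cells 52.3 CPM and the macrophage and vascular types 19.1 to 43.1 CPM.

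Gabbr2, the subunit that couples the receptor to G proteins, was concentrated in astrocyte-like cells, at 123 CPM (112 to 134) and with 60.5% of its 802 UMIs. OPC-like cells had 32.2 CPM (23.0 to 43.8), neuron-like cells 26.0 CPM (22.2 to 30.2), the pars tuberalis-like cluster 20.4 CPM and tanycyte-like cells 11.001 CPM (8.67 to 13.8), and neighbours in this order overlapped. In the pars tuberalis-like cluster Gabbr2 was at 3.28 CPM in the cells with Tshb or Pitx1 and at 48.3 CPM in those without. In MOL-like cells Gabbr2 was at 1.12 CPM (0.363 to 2.61), from 5 UMIs in 3 of 658 cells, and in diffOPC-like cells at 1.57 CPM (0.190 to 5.65), from 2 UMIs. MOL-like cells therefore had a UMI of Gabbr1 in 81.9% of cells (78.8 to 84.8) and of Gabbr2 in 0.456% (0.0941 to 1.33). After thinning, the MOL-like share was 42.0% (38.2 to 45.9) for Gabbr1. For Gabbr2 it was 0 of 657 cells, which allows up to 0.457%. The OPC-like level of Gabbr2 was 28.8 times the MOL-like level (11.4 to 93.5), whereas for Gabbr1 this ratio was 1.17 (1.04 to 1.31).

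Single cells with both subunits were found, but at these counts a cell without a UMI of one of them cannot be said to lack it. In astrocyte-like cells 225 of 1425 cells (15.8%, 13.9 to 17.8) had a UMI of each, and Gabbr1 was detected in 55.8% of cells with Gabbr2 (50.8 to 60.7) and in 56.2% of cells without it (53.1 to 59.2). In neuron-like cells 132 of 511 had both (25.8%, 22.1 to 29.9). After thinning the order was reversed, with both in 12 of 508 neuron-like cells (2.36%, 1.23 to 4.09). In astrocyte-like cells the thinned count was 111 of 1284 (8.64%, 7.16 to 10.3). Before thinning, the astrocyte-like shares with and without the partner lay within each other's intervals. After thinning they were 41.9% (35.9 to 48.1) with Gabbr2 and 46.8% (43.7 to 49.9) without it, and these intervals overlapped.

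Among all genes the members stood as follows, by the log2 ratio of CPM with 10 CPM added to each side and with at least 50 UMIs in both groups together. In neuron-like against all other named cells all 7 were measured, and 3 were at least 2 log2 units higher, which was true of 2.51% of 13923 genes, and 1 was at least 2 log2 units lower, which was true of 3.38%. Those higher were Gad2 at 4.78, Gad1 at 4.16 and Slc32a1 at 3.73, and the lower one was Slc6a11 at -2.92. Between these limits lay Gabbr1 at 0.81, Abat at -0.02 and Gabbr2 at -0.08. The median of the 7 was 0.81 and that of all genes -0.06. As plain CPM ratios, the neuron-like level was 82.3 times that of the other cells for Gad2 (67.9 to 101). It was 40.8 times for Gad1 (34.8 to 48.2) and 38.4 times for Slc32a1 (31.6 to 47.2). Among those other cells, the mixed pars tuberalis-like cluster held 42 of 109 Slc32a1 UMIs, 31 of 164 Gad1 UMIs and 31 of 108 Gad2 UMIs. OPC-like cells held 50 of the 164 Gad1 UMIs.

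In astrocyte-like against neuron-like cells, Slc6a11 alone of 7 members was at least 2 log2 units higher (5.07), against 4.82% of 11289 genes, and the 3 synthesis genes were lower by that much (Gad2 -4.73, Gad1 -4.40, Slc32a1 -3.81), against 6.2% of genes. Gabbr2 lay just inside this limit at 1.88, although its plain CPM ratio was 4.73 (3.97 to 5.66), since the added 10 CPM lowers the ratio of low genes. Abat differed by 0.68 and Gabbr1 by -0.24 on the log2 scale. In plain CPM the astrocyte-like level of Abat was 1.67 times (1.49 to 1.86) and that of Gabbr1 0.842 times (0.786 to 0.903) the neuronal one. The median of the 7 was -0.24, and of all genes -0.17.

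In astrocyte-like against tanycyte-like cells, 4 members had 50 UMIs or more, since the synthesis genes were near 0 on both sides. Slc6a11 (3.24) and Gabbr2 (2.66) were at least 2 log2 units higher in astrocyte-like cells, against 2.2% of 11071 genes, and no member was that much lower, against 1.92%. Gabbr1 differed by 0.67 and Abat by 0.02. The uptake transporter thus set these glial types apart by a CPM ratio of 10.0 (9.39 to 10.7), while for the breakdown enzyme the ratio was 1.01 (0.919 to 1.12). The 4 members had a median of 1.67 and all genes one of -0.14.

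**Figure D2:**
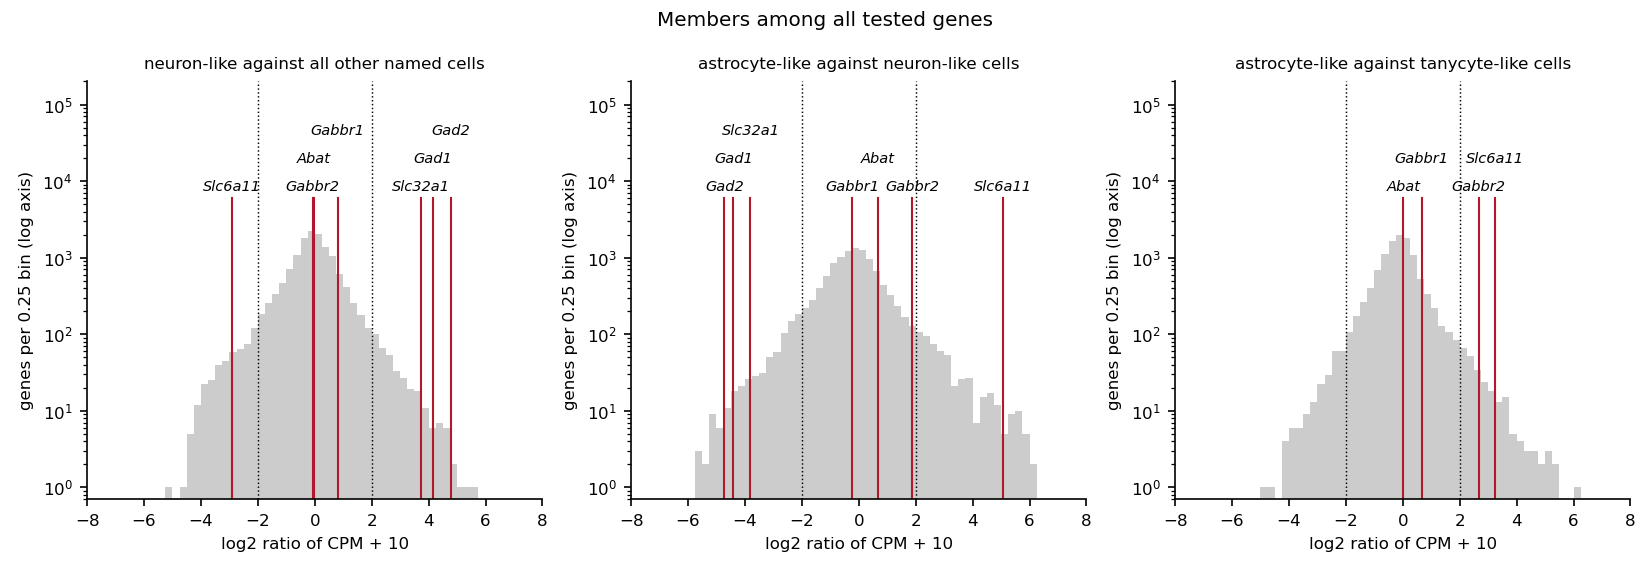
Number of genes (y axis, log scale) by log2 ratio of CPM + 10 (x axis) in each of 3 comparisons, with red lines at the measured members and dotted lines at 2 log2 units either way. The synthesis genes sat at 3.73 to 4.78 in neuron-like against other cells, and Slc6a11 at 5.07 and 3.24 in the astrocyte-like comparisons.

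Within neuron-like cells, 440 of 511 (86.1%, 82.8 to 89.0) had a UMI of at least 1 of the 3 synthesis genes, 294 had all 3, and 71 had none. With at least 2 UMIs of 1 of them required, the share was 79.3% (75.5 to 82.7). After thinning to 2000 UMIs it was 68.1% (63.9 to 72.1), against 2.22% in microglia-like and 1.98% in MOL-like cells, so the signal lay far above background at equal depth. The combination of Gad1 and Gad2 without Slc32a1 occurred in 37 cells, of Gad1 and Slc32a1 without Gad2 in 38 and of Gad2 and Slc32a1 without Gad1 in 11. A single gene was found in 60 cells, namely Gad1 in 29, Gad2 in 22 and Slc32a1 in 9.

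Slc17a6, which encodes the vesicular glutamate transporter VGLUT2, was found more often in neuron-like cells without a synthesis gene than in cells with one. At full depth the genes still occurred together in part of the cells. Of 387 neuron-like cells without a Slc17a6 UMI, 97.2% (94.97 to 98.6) had a UMI of a synthesis gene, and of 124 with one, 51.6% (42.5 to 60.7). With at least 2 UMIs of Slc17a6 required, 52 of 102 cells had a synthesis gene (51.0%, 40.9 to 61.0). From the other side, 84.5% of the 71 cells without a synthesis gene had Slc17a6 (74.0 to 92.0), against 14.5% of the 440 with one (11.4 to 18.2). At full depth 64 cells had both. Of these, 11 had all 3 synthesis genes, while 20 had Gad1 alone, 18 Gad2 alone and 4 Slc32a1 alone. Of the 376 positive cells without Slc17a6, 283 had all 3. Thinning left 5 of 53 Slc17a6-positive cells with a synthesis gene (9.43%, 3.13 to 20.7) and 341 of 455 without Slc17a6 (74.9%, 70.7 to 78.9). Gabbr1 was similar across this division, at 391 CPM in cells without and 363 CPM in cells with a synthesis gene. Gabbr2, low in neuron-like cells, was at 19.4 CPM in cells without and 26.9 CPM in cells with a synthesis gene. Abat was at 63.0 CPM in cells without and 102 CPM in cells with one.

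Neuron-like cells were clustered again, without the 7 members and the other genes of the system including Slc17a6, into 13 sub-clusters, each called here by its 2 leading genes. In 10 of them the share of cells with a synthesis gene was 93.9% or more, and in 3 it was 58.6% or less. It was 61 of 61 in cells led by Npy and Agrp, the feeding peptides, 33 of 33 in those led by Sst and Cbln4, and 21 of 21 in those led by Ghrh and Gal, which encode growth hormone-releasing hormone and galanin. All cells were also positive in the groups led by Cck and Vipr2 (38 cells), Col25a1 and Fam19a2 (28), Arpp21 and Spink8 (20) and Slc18a2 and Lhx1os (10). The low groups were led by Pomc and Fezf1 with 58.6% of 58 cells (44.9 to 71.4), by Tac2 and Gm28040 with 52.9% of 51 cells (38.5 to 67.1), and by Ppp1r17 and Cdkn1a with 26.1% of 23 cells (10.2 to 48.4). The same 3 groups had Slc17a6 at 220, 303 and 231 CPM, and the other 10 had between 0 and 13.3 CPM.

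The balance of the decarboxylases varied among the positive groups. In cells led by Arpp21 and Spink8, Gad2 was at 1145 CPM (1028 to 1273) and Gad1 at 415 CPM (345 to 494), which is 2.76 UMIs of Gad2 per UMI of Gad1. In those led by Cck and Vipr2, Gad2 was at 267 CPM (206 to 340) and Gad1 at 607 CPM (513 to 713), a ratio of 0.439. Npy and Agrp cells had a ratio of 1.59, with Gad2 at 400 CPM, Gad1 at 251 CPM and Slc32a1 at 124 CPM (103 to 147), the lowest Slc32a1 level among the 10 groups with high shares. The Sst and Cbln4 cells had nearly equal UMI numbers, with a ratio of 0.992. Vip and Rgs16 cells had a Gad1 level of 695 CPM (614 to 783), which was above all groups but those led by Cck and by Slc18a2 beyond the intervals. The Gad2 intervals of the Arpp21-led and Cck-led groups were far apart, and those of Slc32a1 in the same groups (294 to 433 and 338 to 504 CPM) overlapped.

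Among neurons the receptor subunit Gabbr1 varied less than the decarboxylases. It ranged from 286 CPM in Ghrh and Gal cells (232 to 348) to 460 CPM in Cck and Vipr2 cells (378 to 553). Abat ranged from 66.7 CPM in Pomc and Fezf1 cells (50.8 to 86.0) to 234 CPM in Cck and Vipr2 cells (177 to 303), and the Npy and Agrp cells were near its lower end at 70.3 CPM (55.3 to 88.1). The Cck and Vipr2 cells thus stood highest for both genes, although their intervals overlapped those of other groups. They also had the lowest median depth of the sub-clusters, 6366 UMIs.

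**Figure D3:**
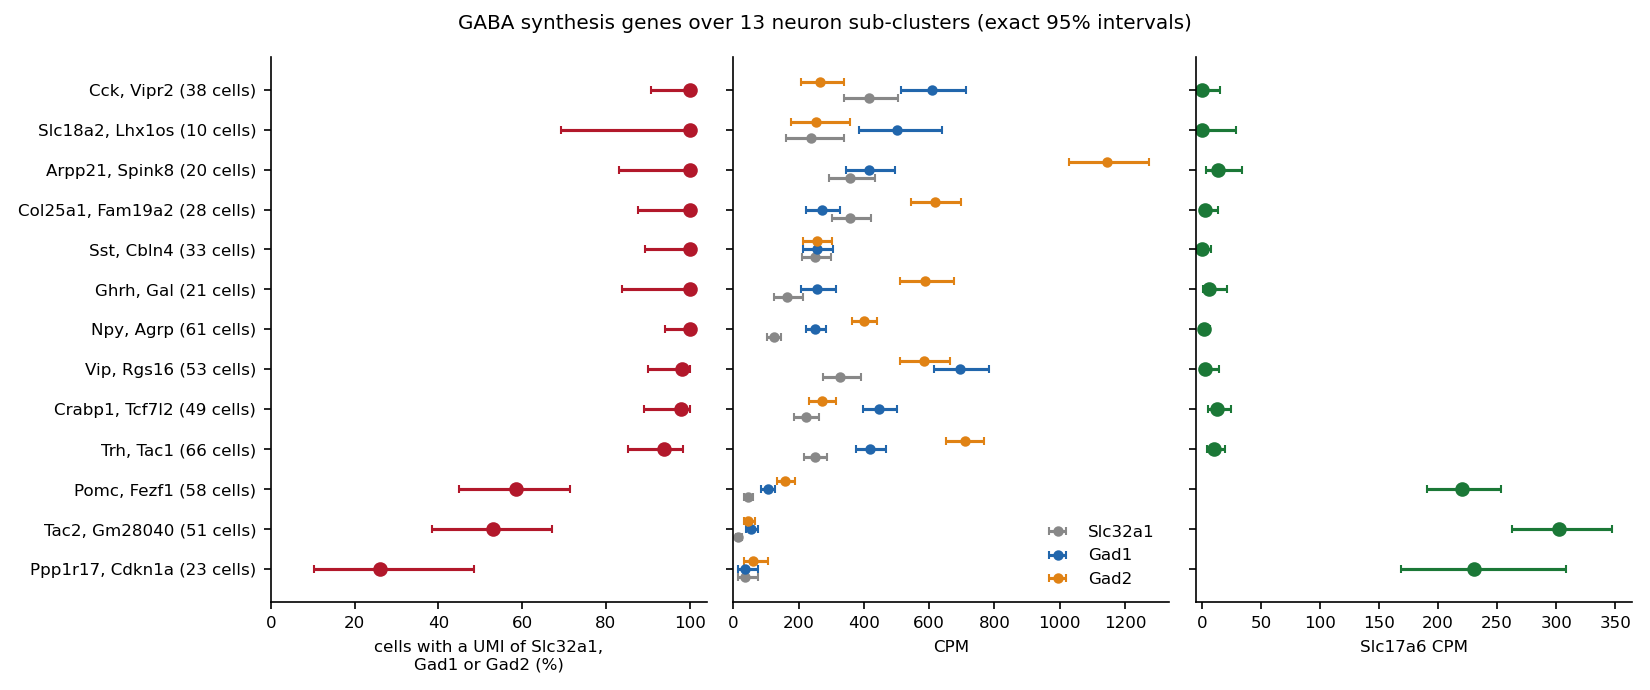
For 13 neuron sub-clusters named by their leading genes (y axis), the share of cells with a UMI of Slc32a1, Gad1 or Gad2 in percent (left), the CPM of each gene (middle) and the CPM of Slc17a6 (right), with exact 95% intervals. The 3 groups with shares of 26.1 to 58.6% had Slc17a6 at 220 CPM or more, and the others had it at 13.3 CPM or less.

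OPC-like cells had Gad1 but little of its partners. Of 306 cells, 48 had a UMI of Gad1 (15.7%, 11.8 to 20.3), 8 of Gad2 (2.61%) and 2 of Slc32a1 (0.654%). After thinning the Gad1 share was 8.85% (5.91 to 12.6), against 1.39% in microglia-like cells (0.452 to 3.21). The level was 8.97 times that of microglia-like (3.84 to 25.6), 8.57 times that of MOL-like (5.05 to 15.02) and 25.7 times that of diffOPC-like cells (6.75 to 218, on 2 UMIs there). Neuron-like cells in turn had 7.42 times the OPC-like level (5.61 to 10.0).

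The make-up of these UMIs differed from that of the neurons. Gad1 accounted for 83.3% of the 60 UMIs of the 3 synthesis genes in OPC-like cells (71.5 to 91.7), for 33.9% of 5830 in neuron-like cells (32.7 to 35.1) and for 38.2% of 217 in all other named types together, the pars tuberalis-like cluster apart (31.8 to 45.1). The positive cells held 1 UMI of Gad1 in 46 cases and 2 in the other 2. Their median depth was 4093.5 UMIs, against 4004.5 in OPC-like cells without Gad1, and 1 of them was called a doublet. Their summed neuron markers were at 1815 CPM (1633 to 2012), against 1587 CPM (1512 to 1666) in the other OPC-like cells and 9839 CPM in neuron-like cells. The first 2 of these intervals overlapped, and the part of neuronal RNA in the Gad1 values was not tested. Their OPC markers were at 4666 CPM (4371 to 4975), against 4513 CPM (4385 to 4644). The 7 neuron markers were unequal in OPC-like cells, since Meg3 made up most with 1198 CPM and Rbfox3 (1.61 CPM) and Stmn2 (5.63 CPM) were near 0. The cells came from all 4 barcode numbers, with 15, 13, 5 and 15 of 101, 79, 57 and 69 OPC-like cells.

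**Figure D4:**
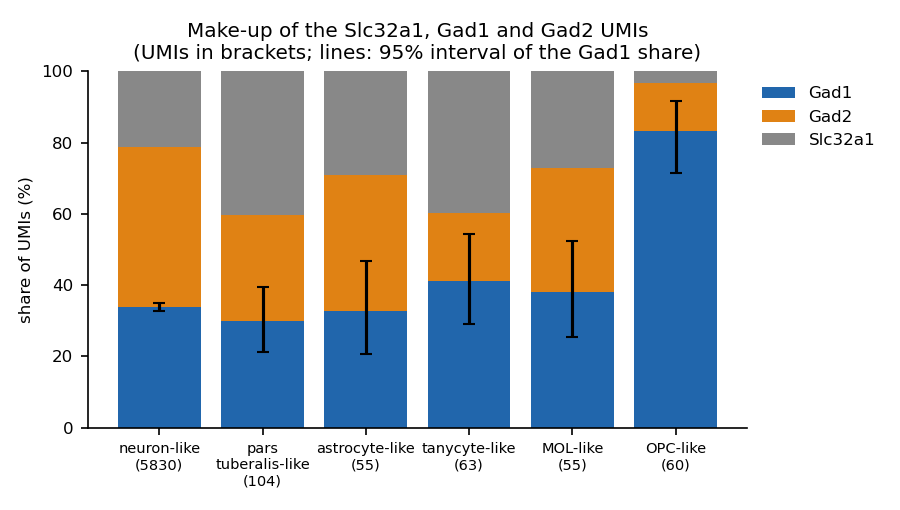
Share of UMIs of Gad1, Gad2 and Slc32a1 among all UMIs of the 3 genes in percent (y axis), in each type with at least 50 such UMIs (number in brackets), with the exact 95% interval of the Gad1 share as a line. OPC-like cells stood apart at 83.3% Gad1, against 33.9% in neuron-like cells.

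Other genes of the system gave a frame for the members. Of 19 GABA-A receptor subunit genes, which form the chloride channels opened by GABA, 13 had enough UMIs in neuron-like against all other named cells, 7 were at least 2 log2 units higher (2.51% of all genes) and none was that much lower (3.38% of all genes), with a median of 2.02. Gabra5 was among them, with a neuron-like level of 85.8 CPM and an astrocyte-like level of 0.76 CPM (3 UMIs), as was Gabre, at 56.5 and 2.03 CPM. Other subunits were glial as well. Gabrb1 was at 194 CPM in astrocyte-like (181 to 208) and 140 CPM in neuron-like cells (131 to 150). In the same types Gabrg1 was at 208 CPM (194 to 222) and 71.3 CPM (65.0 to 78.0). Gabra4, a low gene, was at 28.1 and 19.8 CPM there, a plain ratio of 1.42 (1.09 to 1.84). Against tanycyte-like cells, 2 of 6 measured subunits were at least 2 log2 units higher in astrocyte-like cells, again Gabrb1 (3.39) and Gabrg1 (3.73), against 2.2% of all genes. Gabra6, Gabrp and Gabrr3 had no UMI in any named type.

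Slc6a13, another plasma membrane transporter of GABA, had 254 CPM in VLMC-like cells (220 to 291) and 0.76 CPM in astrocyte-like cells (3 UMIs). Its highest level was thus found in the leptomeningeal cells, in contrast to Slc6a11. Of the 3 enzymes after Abat or of the putrescine route, none passed 2 log2 units in any of the 3 comparisons. Of all genes, 1.92% to 6.2% passed it, by comparison and direction, so none among so few genes says little about them. Maob, a monoamine oxidase, was at 40.3 CPM in astrocyte-like (34.3 to 47.05) and 4.05 CPM in tanycyte-like cells (2.69 to 5.86). Its plain CPM ratio was 9.94 (6.62 to 15.4), and with 10 CPM added the log2 ratio was 1.84. Of the 4 auxiliary subunits of the GABA-B receptor, 3 were measured in both comparisons with neuron-like cells and 2 in astrocyte-like against tanycyte-like cells, and of its 3 potassium channel genes 2 were measured in the former and none in the latter. None of those measured passed that limit, which few of all genes did either (1.92% to 6.2%). Kctd12 was highest outside neurons and astrocytes, with 394 CPM in microglia-like cells.

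Across the 13 named types, the genes most like each member were found by Pearson's r of log2(CPM + 10), among 11016 genes with at least 200 UMIs. They are a description over 13 points that share their libraries and differ in depth. For the synthesis genes they rest largely on the neuron-like and the mixed pars tuberalis-like points, since these members were low in most other types. For Slc32a1 they were Nrip3, Unc5d and Gpr101 (r 0.99 each), for Gad1 Sncb, Rab3c and Kcnc1 (0.99, 0.98, 0.98), and for Gad2 Vgf, Syndig1l and Sst (0.99 each). For Slc6a11 they were Slc4a4, Acsl6 and Acsbg1 (0.97, 0.97, 0.96), all highest in astrocyte-like cells, and for Gabbr2 Chst10, Gabra4 and Hrh1 (0.95, 0.93, 0.93), also highest there. For Abat they were Fahd2a, Gpr19 and Cul4b (0.95, 0.94, 0.94) and for Gabbr1 Ap3b2, Gnao1 and Tecr (0.96, 0.96, 0.95). Among the members, Gad2 and Slc32a1 had an r of 0.97, Gad1 and Gad2 one of 0.92, Gabbr2 and Slc6a11 one of 0.74 and Gabbr1 and Gabbr2 one of 0.65.

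The levels were then set side by side over the 4 barcode numbers, in the order 1, 2, 3 and 4. In neuron-like cells Gad1 was at 290, 285, 311 and 297 CPM and Gabbr1 at 365, 370, 356 and 376 CPM, and all intervals overlapped within each gene. Slc32a1 was at 160, 204, 198 and 183 CPM, where the interval of number 1 (139 to 183) overlapped the others only at its upper end. Gad2 was at 329, 364, 388 and 462 CPM, and the interval of number 4 (434 to 492) lay above those of the other 3, the nearest of which reached 416 CPM. The share of cells with a synthesis gene was 86.0%, 86.4%, 87.3% and 84.8%, with overlapping intervals. The sub-clusters contributed unequally, for example the Trh and Tac1 group, where Gad2 was at 709 CPM, with 10 of 107, 9 of 88, 22 of 158 and 25 of 158 neuron-like cells, and the part of this in the Gad2 values was not tested.

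In astrocyte-like cells Slc6a11 was at 1556, 1544, 1482 and 1423 CPM, and Abat at 183, 170, 143 and 144 CPM, with overlapping intervals within each gene. Gabbr2 was at 144, 148, 86.8 and 99.7 CPM, and the intervals of numbers 1 (123 to 168) and 2 (126 to 173) lay above those of numbers 3 (67.6 to 110) and 4 (80.8 to 122). The share of cells with a Gabbr2 UMI was 32.2%, 32.4%, 22.2% and 23.9%. The median depth of astrocyte-like cells was 2660, 2581, 2711.5 and 2726 UMIs, and the part of depth in the Gabbr2 values was not tested. Gabbr1 in the same cells was at 290, 329, 287 and 324 CPM, without this division. Because no number could be tied to a library or a feeding state, these differences are values of 4 sets of barcodes and were not tested.

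**Figure D5:**
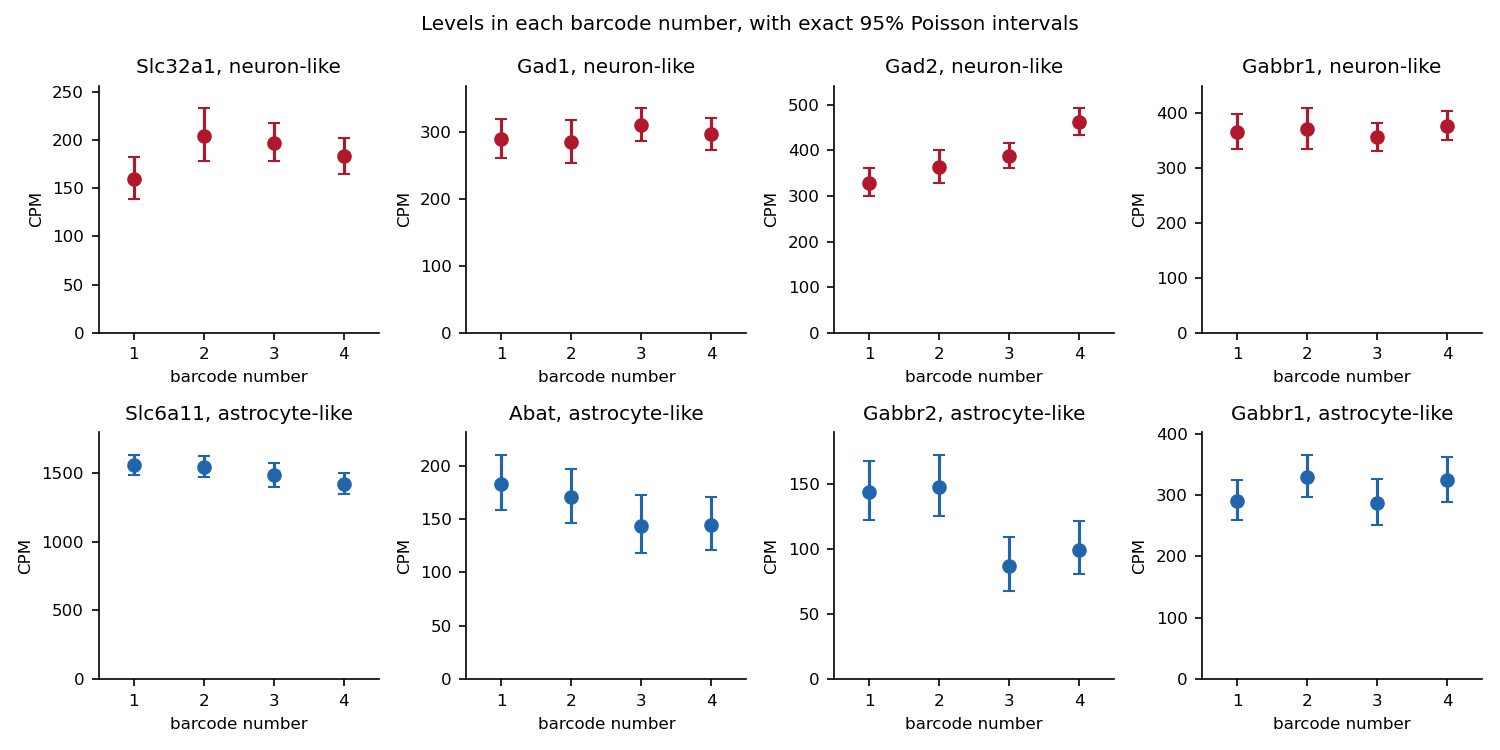
CPM (y axis, from 0) of the named gene in neuron-like (red) or astrocyte-like cells (blue) for each of the 4 barcode numbers (x axis), with exact 95% Poisson intervals. Gad2 in neuron-like cells was highest under number 4 (462 CPM), and Gabbr2 in astrocyte-like cells was at 144 and 148 CPM under numbers 1 and 2 and at 86.8 and 99.7 CPM under numbers 3 and 4.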

How the data were processed

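Per the submitters' processing notes and the study's methods, reads of 10X Single Cell 3' V2 libraries were mapped to mm10 and counted with Cell Ranger 2.0, and the authors deposited 1 table of raw UMI counts per gene and cell, pooled over all libraries. Gene symbols were attached to 27645 of 27998 Ensembl identifiers from a table of gene names. No column was left out, and the columns were not tied to single samples, so no test, mean or SD over samples was computed. The 7 members, the gene lists and the markers were chosen with earlier results of these data known.

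Counts were scaled to the median total and logged, and 2000 variable genes (without the members and 34 other genes of the GABA system) gave 30 principal components, 15 neighbours and Leiden clusters at resolution 1 (scanpy 1.11.5, igraph 0.11.9, Python 3.11.15). A cluster was named for the marker list with the highest score (mean over markers of the CPM as a share of the marker's highest cluster) if this was at least 0.3, at least 1.5 times the next list's, and 3 or more markers were raised at least 4 times over the median cluster. Red cells, in which haemoglobin genes took 10% of the UMIs or more, were kept out of the clustering. Doublets called per barcode number (50 cells, 0.836%) were kept and left out in an alternative. UMIs were summed per type and given as CPM. Intervals at 95% came from scipy 1.17.1, and a count of 0 was given the limit of 3 counts. Comparisons used log2(CPM + 10) over genes with at least 50 UMIs. Thinning drew 2000 UMIs per cell without replacement, leaving out shallower cells (141 astrocyte-like, 42 microglia-like, 28 tanycyte-like, 3 neuron-like, 1 OPC-like, 1 MOL-like and others). The scripts were tested on simulated data. Named genes were the 7 members, genes of the fixed pathway list, the 3 genes most similar to each member and the 2 leading genes of each neuron sub-cluster, and some genes of the pathway list are not reported here. Alternatives were other clusterings, filters, depths, pseudocounts and each barcode number left out. Promoter sequences are from RefSeq and gene positions from GENCODE vM21 (both GRCm38).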

Additional observations from a re-analysis of the deposited data

How the results depend on the processing

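No paired analysis was possible because the columns of the matrix are not tied to the labelled samples and no test was made. Each member kept its highest type under each alternative in which that type was named, except Abat, which was higher in tanycyte-like than in astrocyte-like cells (159 CPM) without barcode number 2. With K-means on 9 clusters no cluster was named neuron-like, so those values could not be recomputed. The share of neuron-like cells with a synthesis gene, 86.1%, was 82.3% at Leiden resolution 2, 79.3% with at least 2 UMIs and 68.1% after thinning to 2000 UMIs, and 85.6 to 86.7% with each barcode number left out. It was 83.0% with the 49 cells of the pars tuberalis-like cluster added. That alternative, resolution 2 for this share, and leaving out barcode numbers in the comparisons of cell types were chosen after seeing the data. After thinning, Gad1 (324 CPM) and Gad2 (431 CPM) in neuron-like cells and Abat in astrocyte-like cells (149 CPM) lay outside their counting intervals, and the cause was not tested. Without 1 barcode number, Gad2 in neuron-like cells ranged from 365 CPM (without number 4) to 413 CPM (without number 1). With a pseudocount of 1 CPM, or without number 3, 2 members rather than 1 were at least 2 log2 units higher in astrocyte-like than in neuron-like cells (range 1 to 2 over the numbers left out), the added one being Gabbr2 at 2.20 and 2.05. The number of members past the limit in the other comparisons was 3 higher and 1 lower in neuron-like cells, 3 lower in astrocyte-like than in neuron-like cells, and 2 higher in astrocyte-like than in tanycyte-like cells under each alternative run. The share of all genes past the limit moved more: with 1 CPM it was 6.37% and 13% for neuron-like against all others (2.51% and 3.38% with 10 CPM), 9.03% and 13.9% for astrocyte-like against neuron-like (4.82% and 6.2%) and 4.14% and 6.24% for astrocyte-like against tanycyte-like cells (2.2% and 1.92%), since fewer low genes are held near 0. With no minimum of UMIs the shares were 1.76% and 2.37%, 3.01% and 3.88%, and 1.37% and 1.2%. No result changed sign past the limit. Depth limited the values of mural-like and endothelial-like cells, where 0 or 1 UMI of Slc32a1, Gad1, Gad2 and Gabbr2 was counted, and the lack of replicates limits all values.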

Other observations

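Among the other GABA receptor genes, Gabrr2, which encodes a rho subunit, was found outside neurons. It was at 35.0 CPM in ependymocyte-like cells (95% Poisson interval 24.4 to 48.7) and 30.2 CPM in MOL-like cells (25.3 to 35.7), against 1.21 CPM in neuron-like cells (0.522 to 2.38). Kctd12, an auxiliary subunit gene of the GABA-B receptor, was at 394 CPM in microglia-like (362 to 430) and 182 CPM in macrophage-like cells (147 to 222), where Gabbr1 was at 52.3 and 19.1 CPM and Gabbr2 had 1 and 3 UMIs. The 49 cells of the pars tuberalis-like cluster without Tshb or Pitx1 had Slc32a1 at 225 CPM, Gad1 and Gad2 at 161 CPM each and Gabbr1 at 542 CPM, and 25 of them (51.0%, 36.3 to 65.6) had a UMI of a synthesis gene.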
